A study of Mus musculus with 6 samples.

Results

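The 8 genes described here encode the mouse lysozymes (Lyz1, Lyz2), receptors that activate myeloid cells (Clec4d, Sirpb1a), the adaptors through which such receptors signal (Tyrobp, Fcer1g), a subunit of the phagocyte oxidase (Ncf4) and a macrophage cytoskeletal protein (Aif1). They were selected on their difference between mutant and wild-type epidermis in these same arrays, together with their shared link to myeloid cells. Their values in that comparison are therefore given as a description, with no test. All probes that the platform annotation assigns to them were taken, 16 of the 45281 probes on the array. Of these, 10 were detected on at least 3 of the 6 arrays and stand among the 18358 probes kept for analysis, so that all 8 members are among the 11354 genes with a kept probe. Only 2 of the 8 are cell-surface receptors, and the name of the set is to be read in that wider sense.

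The arrays measured total RNA from epidermal peels of back skin of C57BL6 embryos at embryonic stage E17.5. One group of 3 samples is wild type and the other group of 3 is the Harlequin Ichthyosis mutant, a model of a severe inherited disorder in which the skin barrier fails. The labels name neither the mutated gene nor an allele, and they call the replicates biological without saying whether each is 1 embryo or a pool. All 6 peels were freed from the dermis in EDTA, and no treatment separates the groups. Sample titles carry the prefix bo20 (wild type 1 and 2, mutant 1 and 2) or bo12 (wild type 3 and mutant 3), whose meaning is not given.

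Lysozyme cleaves the peptidoglycan of bacterial walls. The mouse carries a tandem pair of lysozyme genes, of which Lyz2 is the form of macrophages and neutrophils and Lyz1 that of intestinal Paneth cells. Many activating receptors of myeloid cells have short tails and signal through small transmembrane adaptors: Tyrobp (also DAP12) and Fcer1g (the Fc receptor gamma chain) carry a tyrosine motif, the ITAM, that recruits the kinase Syk once phosphorylated. The epidermis normally holds resident Langerhans cells, while most macrophages and mast cells lie in the dermis.

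RefSeq promoter entries (assembly GRCm38.p6) were found for 6 of the 8 members, Tyrobp and Ncf4 being the others. The 250 bases before the annotated start are shown for both lysozymes, because this pair of neighbouring genes had differences of like size, and for Clec4d, a receptor gene detected in mutant arrays alone. Lyz1 lies at chr10:117292869-117293118 and Lyz2 at chr10:117282273-117282522, both on the minus strand, and Clec4d at chr6:123261857-123262106 on the plus strand. In the lysozymes, capitals mark the longest run that both share. In Clec4d they mark GAGGAA, the core bound by the myeloid factor PU.1, or its reverse complement TTCCTC.
Lyz1: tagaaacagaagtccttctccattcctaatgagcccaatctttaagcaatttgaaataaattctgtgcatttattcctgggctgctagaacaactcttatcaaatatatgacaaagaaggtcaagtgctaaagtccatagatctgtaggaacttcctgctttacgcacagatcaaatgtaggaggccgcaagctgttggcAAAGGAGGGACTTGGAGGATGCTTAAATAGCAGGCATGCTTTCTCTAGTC
Lyz2: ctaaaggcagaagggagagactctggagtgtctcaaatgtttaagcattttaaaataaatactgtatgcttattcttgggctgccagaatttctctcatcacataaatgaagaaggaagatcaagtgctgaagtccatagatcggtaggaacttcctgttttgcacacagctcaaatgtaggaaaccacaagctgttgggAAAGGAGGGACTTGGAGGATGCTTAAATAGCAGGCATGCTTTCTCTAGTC
Clec4d: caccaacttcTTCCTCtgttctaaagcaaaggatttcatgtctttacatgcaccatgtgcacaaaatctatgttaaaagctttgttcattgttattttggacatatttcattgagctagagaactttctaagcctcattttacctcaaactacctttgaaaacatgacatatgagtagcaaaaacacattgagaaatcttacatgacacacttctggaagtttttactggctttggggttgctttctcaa

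The shared run of the lysozymes covers all 50 bases next to the start, and a global alignment of the 250 bases gave 78.8% identical columns. Over the full window of 300 bases, which runs 50 bases past the start, identity was 81.9%, compared with 47.8% for Lyz1 against Fcer1g and 51.9% for Clec4d against Sirpb1a. Sirpb1a shared 67.3% with its neighbour Sirpb1c and 50.4% with Sirpb1b. Counted on both strands in the full windows, the PU.1 core was present in 2 of the 6 members' windows, with 3 matches in Clec4d and 1 in Aif1, and in 28.3% of all 32851 windows. A C/EBP motif (TTGCNNAA) matched only in Lyz1 among the members, against 10.8% of all windows. The AP-1 motif (TGANTCA, 7.8% of windows) and the TATA motif (TATAAA, 13.6%) matched in 0 of the 6.

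Before the members are described, 1 array needs mention. Wild-type array 3 lay apart from the rest: its Pearson's r with the other arrays was 0.836 to 0.891 across kept probes, compared with 0.965 to 0.990 among the remaining 5. The arrays detected 37.9% to 40.7% of their probes, and mean raw intensity ran from 260.0 to 462.5. Array precision is limited by the 3 arrays per group. Of all kept probes, 0 passed limma's adjusted p of 0.05 in either direction (1077 had an unadjusted p under 0.05). Called higher in mutants were thus 0% of probes, as with the replicate number as a block (0%). Without wild-type array 3, 49 of 17808 probes passed, 33 of them higher (0.185%). With array weights (0.112 for wild-type array 3) 0.398% were called higher, while a block for the prefix gave 0.158%. Member values are given with and without that array wherever it matters. Keratinocyte markers, which define the labelled tissue, were measured for 9 of 10 genes: their mean log2 level ran from 12.82 to 13.57 across wild-type arrays and from 13.24 to 13.33 across mutants. RNA of other tissues was present too, with all 8 dermal fibroblast markers and 10 of 11 mast cell markers measured.

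Detection, meaning that a probe exceeds the negative controls with a detection p under 0.05, split the 16 probes plainly. The members' detected probes were 7 that all 6 arrays detected, 2 that all mutant arrays and no wild-type array detected, and 1 of Lyz2 that missed wild-type array 3 alone. The other 6 probes (2 each of Lyz1 and Sirpb1a, 1 each of Lyz2 and Aif1) were detected on no array. Their raw intensities lay between 73.5 and 97.3, and their lowest detection p was 0.0908. Silent probes thus sit beside detected probes of the same gene, and the position of each probe on its transcript was not used here. The platform assigns the 2 undetected probes of Sirpb1a to transcript records that the gene table used here does not hold for this gene.

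**Figure D1:**
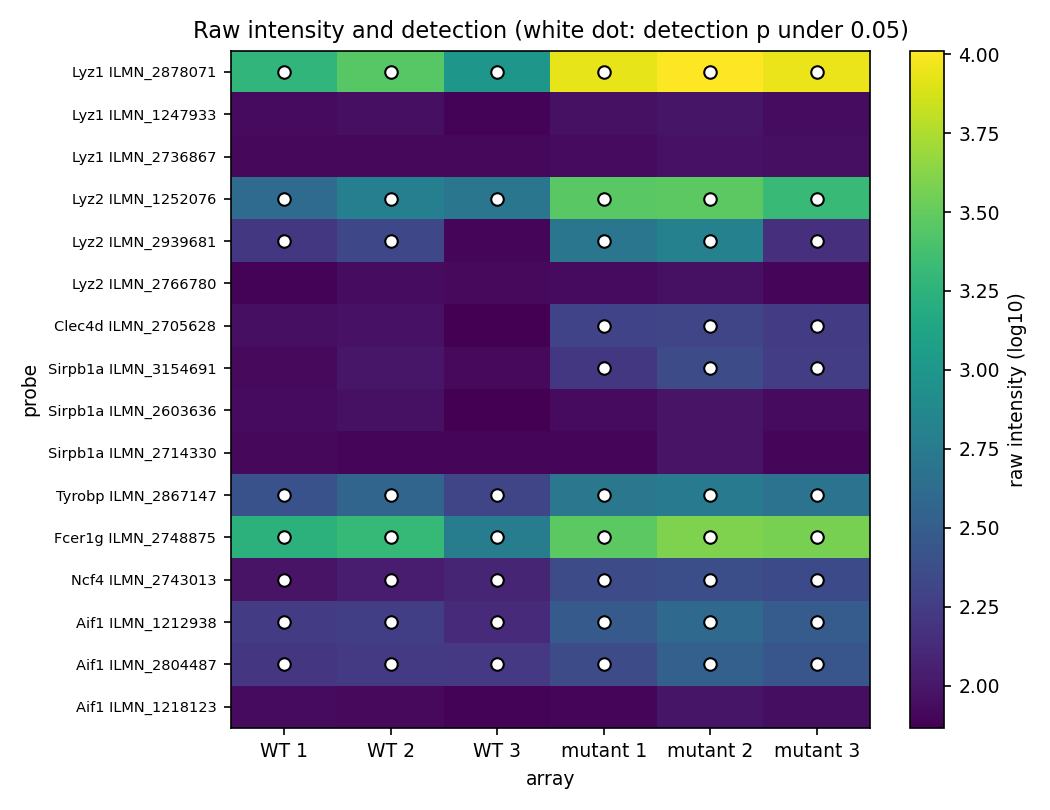
Raw intensity (log10 colour scale) of the 16 member probes, 1 row each, on the 6 arrays, 1 column each. White dots mark a detection p under 0.05: 7 probes have 6 dots, Clec4d and the detected Sirpb1a probe have dots in the 3 mutant columns only, and 6 probes have none.

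With 1 probe per gene, the kept probe with the highest mean, all 8 members had a difference above 0, with a median log2 difference of 1.51 for mutant minus wild type. That median was 0.69 in the authors' deposited table and 0.77 without background correction. Across all kept probes that median was -0.04, and 46.1% of probes had a difference above 0. Among the 10 kept member probes, 6 were more than 2-fold higher in mutants, as were 4.09% of all kept probes. That count was 3 in the authors' deposited table, 2 without background correction and 8 with median scaling. For 6 of the 10 the lowest mutant array exceeded the highest wild-type array, compared with 5.63% of all kept probes (7.68% were separate the other way). As the members were chosen on this contrast, these counts describe them and support nothing further. In a bulk peel, more cells of a type and more RNA per cell cannot be told apart.

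**Figure D2:**
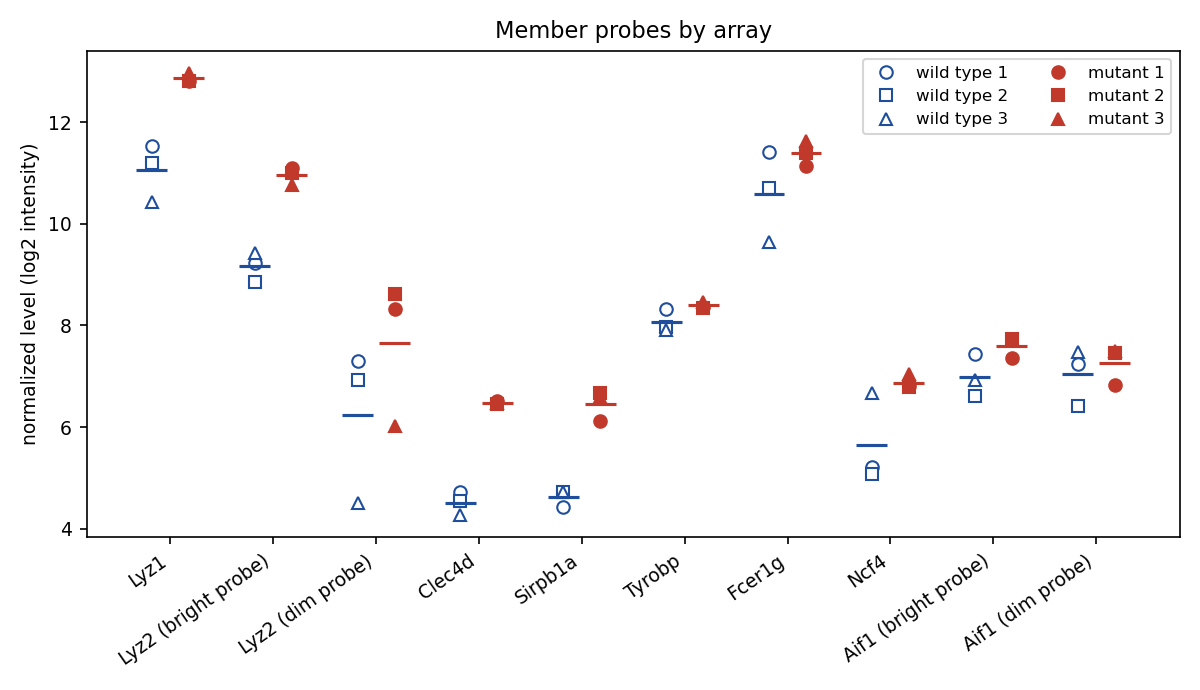
Normalized log2 intensity of the 10 kept member probes, with wild-type arrays as open blue symbols, mutant arrays as filled red symbols, the replicate given by symbol shape, and bars at the group means (n = 3 each). The gap between groups is wide for Lyz1, the bright Lyz2 probe, Clec4d and Sirpb1a, and the groups overlap for Fcer1g and both Aif1 probes.

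Lyz1 was read by 1 kept probe (ILMN_2878071). In array order, as throughout, its normalized log2 level was 11.53, 11.20 and 10.43 for the wild type, against 12.81, 12.81 and 12.97 for the mutant. The groups did not overlap, and the SD was 0.56 in wild type but 0.09 in mutants. The fold was 3.50 (log2 difference 1.81, SE 0.31), or 2.84 without wild-type array 3, which had the lowest of the 6 values.

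Lyz2 was read by a bright and a dim kept probe. The bright one (ILMN_1252076) gave 9.22, 8.85 and 9.42 in wild type and 11.10, 11.00 and 10.77 in mutants. Again the groups were separate, by 1.34 log2 units between the lowest mutant and the highest wild-type array. The fold was 3.47 (log2 difference 1.79, SE 0.23), and 3.75 without wild-type array 3. The dim probe (ILMN_2939681) gave 7.30, 6.92 and 4.51 in wild type and 8.33, 8.61 and 6.02 in mutants. Here the array numbered 3 was lowest in both groups, mutant array 3 fell below wild-type arrays 1 and 2, and the groups overlapped.

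The log2 difference of the dim Lyz2 probe was 1.41 (SE 0.92), 0.53 without wild-type array 3 and 2.22 without mutant array 3. Within the bo20 arrays it was 1.37 and within the bo12 pair 1.51. Relative to their own means, the bright and the dim probe differed by 1.80 and 1.64 log2 units in wild-type and mutant array 3 and by -1.19 to -0.34 in the other arrays. The spread of that disagreement, 2.99 log2 units between arrays, was exceeded in 9.80% of the 3551 genes with at least 2 kept probes, whose median spread was 1.05. Lyz1 and Lyz2 are close copies, so a probe of one may also read the other, and the 3.50-fold and 3.47-fold differences may not be independent values.

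Clec4d encodes a C-type lectin of myeloid cells that binds mycobacterial glycolipids and pairs with Fcer1g. Its only probe (ILMN_2705628) read raw intensities of 89.2, 94.0 and 73.6 in wild type and 197.2, 205.5 and 172.5 in mutants. On the normalized log2 scale these were 4.72, 4.54 and 4.27 against 6.51, 6.45 and 6.48. No wild-type array detected the probe and all mutant arrays did, with a mutant SD of 0.03. Against the detection limit of the wild-type arrays in the main processing, the level was at least 3.14-fold higher in mutants. That limit is, per array, the higher of the probe's own value and the lowest detected value.

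Sirpb1a encodes a signal-regulatory protein that pairs with Tyrobp. Its detected probe (ILMN_3154691) read 4.42, 4.72 and 4.72 in wild type and 6.11, 6.66 and 6.59 in mutants. It too was detected on every mutant and no wild-type array, and its level was at least 3.08-fold higher in mutants by the same reckoning. On the whole array, 101 of 45281 probes (0.223%) had this pattern, and 75 (0.166%) the opposite one. The Sirpb1 genes are a family of close copies, so the probe may read its neighbours.

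The size of both receptor differences depended on background correction, since their wild-type signal was not above it. In the authors' deposited log2 values, which hold no background subtraction, the difference came to 1.66-fold for Clec4d and 1.57-fold for Sirpb1a. The bounds above hold for the main processing only. With the larger offset of 50 in that correction, the log2 differences of Clec4d and Sirpb1a were 1.13 and 1.07. Direction did not depend on background correction, nor on wild-type array 3, without which the log2 differences of Clec4d and Sirpb1a were 1.96 and 2.00.

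Ncf4 encodes a cytosolic subunit of the NADPH oxidase with which phagocytes make superoxide. Its probe (ILMN_2743013) read 5.22, 5.07 and 6.66 in wild type and 6.80, 6.79 and 7.04 in mutants. Wild-type array 3 stood well above the others of its group and under the lowest mutant by only 0.12. The fold was 2.34 (log2 difference 1.22, SE 0.43) and reached 3.47 without that array. It was 1.52 without background correction and 1.56 in the authors' deposited table. Within bo20 the log2 difference was 1.65, and within the bo12 pair 0.37.

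Both adaptors were detected on all 6 arrays. Tyrobp (ILMN_2867147) read 8.32, 7.97 and 7.91 in wild type and 8.37, 8.35 and 8.47 in mutants. Its groups were separate by just 0.03, and the fold was 1.26 (SE 0.21 on the log2 scale). Without wild-type array 3 its log2 difference was 0.24, and 0.33 with it.

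Fcer1g (ILMN_2748875) varied more among the wild-type arrays than Tyrobp, with an SD of 0.89 against 0.22. It read 11.42, 10.70 and 9.65 in wild type and 11.13, 11.40 and 11.62 in mutants, so that wild-type array 1 stood above mutant arrays 1 and 2. The fold was 1.74 (SE 0.44 on the log2 scale), falling to 1.25 without wild-type array 3, the lowest of the 6. Within bo20 the log2 difference was 0.21, whereas in the bo12 pair, which holds that array, it was 1.97. The Fcer1g difference of 0.80 thus fell to 0.33 without wild-type array 3.

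Aif1, also called Iba1, bundles actin in macrophages and is a common marker of them. Its bright probe (ILMN_1212938) read 7.44, 6.61 and 6.93 in wild type and 7.35, 7.74 and 7.72 in mutants, a fold of 1.53 (SE 0.27 on the log2 scale). Its dimmer one (ILMN_2804487) read 7.24, 6.41 and 7.48 against 6.82, 7.45 and 7.50, a fold of 1.16 (SE 0.35 on the log2 scale). Both overlapped between groups. Without wild-type array 2, the lowest for either probe, the second gave a log2 difference of -0.10. The disagreement of the 2 probes over arrays spanned 1.08 log2 units, near the 1.05 that was the median over genes with several kept probes.

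**Figure D3:**
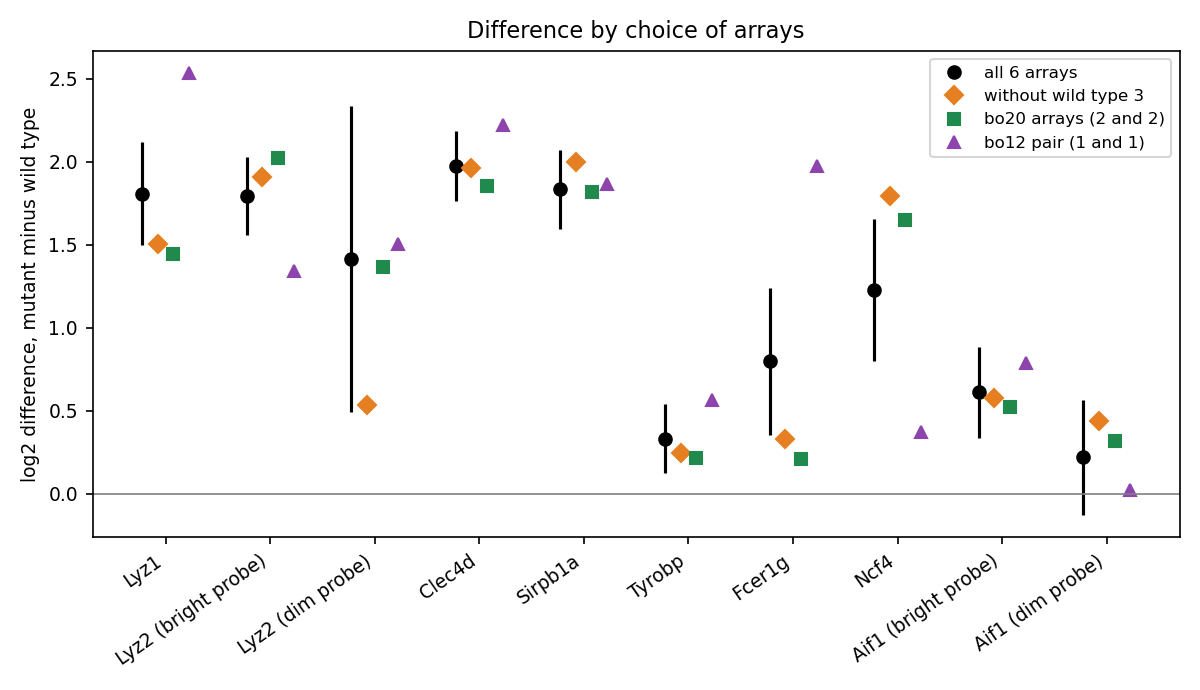
Log2 difference (mutant minus wild type) of the 10 kept member probes from all 6 arrays (black, with bars of 1 SE), without wild-type array 3 (orange), within the bo20 arrays (green) and within the bo12 pair (purple). Clec4d and Sirpb1a lie between 1.82 and 2.22 in all 4 choices, while Fcer1g runs from 0.21 to 1.97 and Ncf4 from 0.37 to 1.80.

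Title prefixes were the only sign of a batch in the labels. Within the bo20 arrays, 2 of each group, 7 of the 10 kept member probes were separate with mutants on top, beside 22.8% of all kept probes. Within the bo12 pair all 10 were higher in the mutant, beside 40.0% of all kept probes. The median over the 8 members was 1.55 within bo20 and 1.61 within bo12. The bright Lyz2 probe, Ncf4 and the second Aif1 probe had the larger difference in bo20, and the other 7 probes in the bo12 pair.

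Without wild-type array 3 the groups were separate for 6 of the 10 member probes (14.6% of all probes in that fit), and 5 were over 2-fold higher (1.02%). As above, nothing is read from these counts, and Clec4d and Sirpb1a passed the detection filter through the mutant arrays alone.

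The mutant arrays ranged less than the wild-type arrays when wild-type array 3 was included. That array lay apart from the rest (r of 0.836 to 0.891), and the ranges are not given without it. Over the kept member probes the median range within a group was 0.95 log2 units in wild type and 0.36 in mutants. Over all kept probes these ranges were 0.80 and 0.39, so the members shared this with the array as a whole. The lowest wild-type value belonged to array 3 for 5 of the 10 probes, to array 2 for 4 and to array 1 for 1. Among the mutants, array 3 was highest for 5, as it was for 44.2% of all kept probes.

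Of 20 other genes whose products couple to the same adaptors, 10 were measured: 0 passed in either direction, 6 differences were above 0 and 4 below, and the median was 0.41 (-0.09 to 0.61 over other settings). The members were chosen for their differences and this list was not, so their medians are not compared. Clec4n, the lectin Dectin-2, which pairs with Fcer1g, averaged 5.26 ± 0.51 (SD, n = 3) in wild type against 6.78 ± 0.23 (SD, n = 3) in mutants. It differed by 1.51 with an SE of 0.30 (limma adjusted p = 0.303), or by 1.31 without wild-type array 3. It was detected on 2 of 3 wild-type arrays. Its groups were separate. Fcgr4 and Fcgr1, activating Fc receptors that need Fcer1g, had differences of 0.84 (SE 0.36) and 0.43 (SE 0.23). Cd300ld, a receptor of the same class, was detected on every mutant and no wild-type array, at least 1.14-fold higher in mutants in the main processing. Clec4e (Mincle), the partner lectin encoded beside Clec4d, differed by -0.03 (SE 0.21), with limma adjusted p = 0.962. Trem1 and Hcst, an inflammatory receptor and the related adaptor DAP10, gave -0.06 and -0.10. Fcgr3, another Fc receptor, had a difference of 1.14 (SE 0.72) that was 0.24 without wild-type array 3. Clec7a and Clec5a were detected on no array.

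Kinases and adaptors below the ITAM had differences of both signs. Over 12 measured of 17 the median was 0.03, with 8 above 0 and 4 below, and 0 passed. The smallest p belonged to Plcg2, a phospholipase (0.79, SE 0.25, limma adjusted p = 0.677), Bcl10, an adaptor of NF-kappa-B signalling (0.60, SE 0.20), Vav1, an exchange factor of blood cells (0.76, SE 0.29), and Btk (0.32, SE 0.23). These first 3 had separate groups. Vav1 passed with array weights (1.08, limma adjusted p = 0.0439), and in no other setting. Syk, the kinase that docks on both adaptors, was detected on no array.

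Of the oxidase that Ncf4 serves, 4 of 8 listed genes were measured, with a median of 0.01 (0.35 without wild-type array 3). Cyba, a membrane subunit, differed by 0.39 (SE 0.26, limma adjusted p = 0.791), and Rac2, the small GTPase of the complex in blood cells, by 0.08 (SE 0.42). Rac1 and Cybc1 differed by -0.06 and -0.08. Without wild-type array 3 Rac2, Rac1 and Cybc1 were at 0.47, 0.23 and 0.17, so that the sign of the last 2 turned. Cybb, the catalytic subunit, was detected on no array. All 4 measured inhibitory receptors were above 0 with a median of 0.46 (0.02 in the authors' deposited table and 0.01 with no detection filter), led by the Fc receptor Fcgr2b (0.83, SE 0.25, limma adjusted p = 0.649), and followed by Lilrb4a (0.59), Sirpa (0.32) and Pilra (0.29). None of these passed. Among 8 other lysozyme-type genes 1, Lyzl4, was measured, at -0.31 (SE 0.24).

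Markers of macrophages and other myeloid cells were mostly above 0 in the same arrays. Of 20 macrophage and pan-myeloid markers 16 were measured: 14 were above 0, 5 had separate groups, all higher, the median was 0.43, and 0 passed. Their summed linear intensity ran from 6267 to 7243 over wild-type arrays and from 8969.7 to 11277 over mutant arrays. Bright genes weigh most in that sum, above all Laptm5 (mean log2 level 11.52 in wild type and 12.18 in mutants). The markers' mean log2 level ran from 7.08 to 7.61 over wild-type arrays and from 7.71 to 8.08 over mutant arrays. Mpeg1, a pore-forming protein of macrophages, read 5.06 ± 0.71 in wild type and 6.98 ± 0.55 in mutants, a difference of 1.93 (SE 0.43, limma adjusted p = 0.384). It was detected on 2 of 3 wild-type arrays, and its difference was 1.56 without wild-type array 3. Coro1a, an actin regulator of leukocytes, differed by 0.92 (SE 0.20), Laptm5, a lysosomal protein of blood cells, by 0.65 (SE 0.26), and C1qb, a complement subunit, by 0.58 (SE 0.28). Mpeg1 and Coro1a passed with array weights (limma adjusted p = 0.0336 and 0.0297), and Mpeg1 with the prefix block (0.0318). Itgam, Ptprc and Ccr2 were detected on no array. The part of such markers in the members' differences was not tested.

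Langerhans and dendritic markers had 6 measured of 11, all above 0, with a median of 0.31 (0.51 over 5 without wild-type array 3), and 0 passed. Cd74, the invariant chain, differed by 0.70 (SE 0.31, limma adjusted p = 0.791) and H2-Aa, a class II chain, by 0.69 (SE 0.40), while Cd207 (langerin), the defining Langerhans gene, was detected on no array. Their summed intensity ran from 449 to 644 in wild type and from 643 to 885 in mutants.

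Neutrophil markers had 6 measured of 13, a median of 0.31 (-0.015 to 0.793 over other settings), and 0 passed. That median was 0.57 without wild-type array 3 and 0.03 in the authors' deposited table. Lcn2, an iron-sequestering protein that stressed epithelium also makes, differed by 1.53 (SE 0.39, limma adjusted p = 0.473) and Retnlg, a resistin-like protein, by 0.82 (SE 0.25), both with separate groups. Camp and Ltf, granule proteins, differed by 0.03 and -0.31, or by 0.72 and 0.04 without wild-type array 3, and Ngp, Csf3r, Cxcr2 and Mmp8 were detected on no array.

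Mast cells use Fcer1g in their IgE receptor and their markers had a median of -0.06 (10 measured, 4 above 0, 6 below, 0 passed), or 0.03 without wild-type array 3. Cpa3, a mast cell protease, read 12.81 ± 1.04 in wild type and 13.51 ± 0.25 in mutants, a difference of 0.70 (SE 0.50, limma adjusted p = 0.791) that was 0.10 without wild-type array 3. Fcer1a, the IgE-binding chain, differed by 0.40 (SE 0.23) and Ms4a2, the beta chain of that receptor, by 0.03 (SE 0.29). Mean mast cell marker level ran from 9.11 to 9.43 in wild type and from 9.41 to 9.46 in mutants.

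T and NK cell markers had a median of 0.20 over 5 measured, endothelial markers -0.12 over 6, erythroid 0.05 over 5, melanocyte -0.16 over 5 and keratinocyte -0.13 over 9, with 0 passing in each. Without wild-type array 3 the endothelial median turned to 0.21 and the erythroid one to -0.03, and the T and NK cell, melanocyte and keratinocyte medians were 0.10, -0.37 and -0.16. Dermal fibroblast markers had a median of 0.57 over 8, with 7 above 0, which was 0.06 without wild-type array 3. Their mean level was 9.25 to 11.44 over wild-type arrays and 11.05 to 11.73 over mutant arrays, and their part in the members' differences was not tested.

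**Figure D4:**
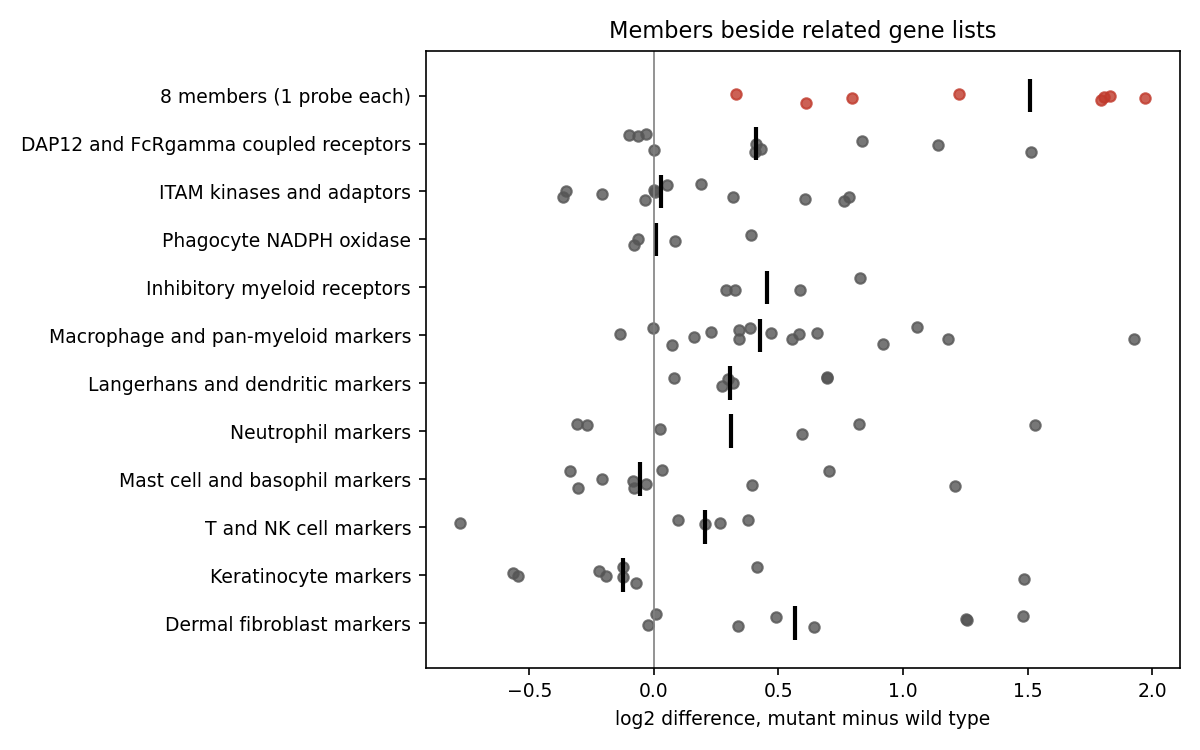
Log2 difference (mutant minus wild type) of each measured gene, 1 dot per gene, for the 8 members (red) and 11 related gene lists (grey), with a bar at each median. The members' median is 1.51, and the list medians run from -0.13 for keratinocyte markers to 0.57 for dermal fibroblast markers (0.06 without wild-type array 3). The members were chosen on this difference, so their median is not compared with those of the lists.

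The genes whose pattern over the 6 arrays came nearest to the members' mean pattern were Nfkbia, Ifitm1, Selp, Ms4a6d and Casp4. As the members were chosen for their difference between mutant and wild type, genes near their mean pattern had to be higher in mutants too. Nothing further is read from this nearness. Likeness was the root mean square distance between profiles, each centred on its own mean, over 11346 other genes with a kept probe, whose median distance was 0.777. Nfkbia, which encodes an inhibitor of NF-kappa-B, lay at 0.135 and read 9.18, 9.13 and 9.10 in wild type and 10.29, 10.38 and 10.21 in mutants. Ifitm1, an interferon-induced membrane protein, lay at 0.144, and Selp, the adhesion receptor P-selectin, at 0.175. Ms4a6d, a membrane protein of macrophages, lay at 0.177, with a fold of 2.83, and Casp4, an inflammatory caspase, at 0.179, with a fold of 2.39. The members themselves lay between 0.338 (Lyz2) and 0.554 (Ncf4) from their mean.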

How the data were processed

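Total RNA of 6 epidermal peels, 3 per group, was profiled on Illumina bead arrays. The authors deposited raw bead intensities without background subtraction or normalization, per the file headers. The submitters' processing notes name BeadStudio. A second deposited column per array holds a fraction that reaches 1 for bright probes, and 1 minus it was taken as the detection p. The authors' deposited log2 table equals log2 intensity minus the array's 75th percentile and minus the probe's median: 100% of values came out within 0.001. Its scale, centring and direction are thus known, and its column medians were 0.26, -0.01 and 0.33 for wild type and -0.13, -0.13 and 0.01 for mutants. No source used here gives a genome build.

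In R 4.3.3, the intensities were corrected with limma 3.58.1 (nec, offset 16), put on the log2 scale and then quantile-normalized. The filter asked for a detection p under 0.05 on 3 or more arrays. Symbols came from the platform annotation, updated through Entrez identifiers (28620 probes) or accessions (2637). 35784 probes had 1 symbol, 0 had several and 9497 had none. Groups were compared with limma (lmFit, eBayes, two-sided, Benjamini-Hochberg over all kept probes). The fit was checked on simulated data with changes larger than the members' and with capped probe spreads. That check does not show whether changes of the members' size would be called. At most 0.517% of raw values were equal between any 2 arrays. Deviations of same-numbered samples from their group means had r = 0.27, 0.46 and 0.54 for numbers 1 to 3. Values for differently numbered samples are not given beside them. Number 3 is also the bo12 pair and holds wild-type array 3, so number and prefix cannot be told apart there. As the labels' descriptions give both groups replicate numbers 1 to 3, the block by number was fitted as well. The members and the 15 gene lists were chosen with earlier results of these data known. Named are all member probes, up to 4 genes with the smallest p per list, and the 5 genes nearest in pattern. Other list genes were named after their values were seen. A list gene with several kept probes was read by the one with the highest mean, and the detection filter keeps genes that are high in 1 group alone.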

Additional observations from a re-analysis of the deposited data

How the results depend on the processing

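Main values were 0 probes called in either direction and a members' median log2 difference of 1.51. Probes called higher numbered 1 without background correction, 6 in the authors' table, 73 with array weights and 29 with the prefix block, and 0 to 33 when leaving out 1 array. Called lower were 56 with array weights, 19 with the prefix block and 0 to 16 when leaving out 1 array. Without wild-type array 3 but with the filter of all 6 arrays, 33 were higher and 18 lower, and the members' median was 1.65. The median was 0.77 without background correction, 0.94 with an offset of 50, 0.69 in the authors' table and 1.84 with median scaling, which moved the median of all probes from -0.04 to 0.31. It was 1.61 within bo12, 1.32 with the dim Lyz2 probe, and 1.28 to 1.65 when leaving out 1 array. Without any 1 mutant array, Clec4d and Sirpb1a missed the detection filter and could not be called, but their differences stayed in the median. Setting undetected members at their bound, chosen after seeing the data, gave 1.42. The block by replicate number gave 0 calls and a median of 1.51, and changed no other call. Relative to all probes, each kept member probe was above 0 under median scaling too. Over the left-out arrays, the second Aif1 probe ran from -0.10 without wild-type array 2, where it reversed, to 0.44 without wild-type array 3, and the cause was not tested. Clec4d and Sirpb1a in wild type were at background, which limits their fold to a bound that depends on the offset.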
